A study of Mus musculus with 6 samples.

Results

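The regions described here are stretches of weak histone H3 lysine 27 acetylation (H3K27ac) that were nevertheless called as enriched in all 3 genotypes of a macrophage-like mouse cell line. Peaks of the 3 deposited peak lists were merged where they overlapped by at least 1 bp on chromosomes 1 to 19, which gave 38990 regions, of which 14443 held a peak in every list. A region was kept when its called length in wild type summed to under 5000 bp and its wild-type tag density was under 25 tags per kb. This left 2124 sparse regions, or 14.7% of the regions called in every genotype. Tag density is the number of ChIP tags, scaled by the authors to 10 M tags per library, per kb of the sequence called as peak. Wild-type density and length thus chose the regions, and wild-type values below are a description.

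H3K27ac is written by the acetyltransferases p300 and CBP, removed by histone deacetylases, and marks active promoters and enhancers. Its level is graded: strong domains lie at highly active promoters and enhancer clusters, and low levels are common at weak or distal enhancers and at the edges of stronger domains. BMAL1 pairs with CLOCK to bind E-box sequences and drive the transcription loop of the circadian clock. MFP2, encoded by Hsd17b4, is a bifunctional enzyme of peroxisomal β-oxidation, the pathway that shortens very long and branched fatty acids.

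The cells were RAW264.7, a line of macrophage-like mouse cells, in the genotypes Bmal1 knockout (Bmal1KO), Mfp2 knockout (Mfp2KO) and wild type (WT, called naive in the sample names). Each genotype had 1 ChIP library made with an antibody to H3K27ac and 1 input library made without one, 6 libraries in all. All were grown in the same medium with 5% fetal bovine serum, with no inflammatory stimulus stated. Whether each knockout line is 1 clone or a pool, and how the genes were disrupted, is not given in the labels. With 1 library per genotype there was no replicate spread and no test between genotypes, and every difference is between these libraries. Intervals are exact 95% intervals. Those of tags and of ratios at single regions cover the counting of tags only. Those of shares are binomial over regions, treat regions as independent and hold no error of the tags. Neither covers the spread between libraries, and tags carry no molecular identifiers. The ChIP libraries held 12.5 M tags in Bmal1KO, 15.8 M in Mfp2KO and 15.8 M in WT. The headers put the IP efficiency, roughly the part of all tags that fell in peaks, at 37.4% in Bmal1KO, 57.2% in Mfp2KO and 38.7% in WT. Positions are in build mm39 as the peak lists give them. The gene table and promoter sequences at hand are of another build, so nearby genes, macrophage markers, H3K27ac at the knocked-out genes and the sequences of the regions were not analysed here.

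H3K27ac was under the same limit of 25 tags per kb in both knockouts at 1172 of the 2124 sparse regions. This was 55.2%, beside 14.6% of all regions called in every genotype. More of the others reached the limit in Mfp2KO (794, or 37.4%, beside 80.7%) than in Bmal1KO (420, or 19.8%, beside 76.8%). Low WT density chose the sparse regions, so nothing is read from the distance to these backgrounds. The part of the higher IP efficiency in Mfp2KO was not tested. The median density was 19.8 tags per kb in Bmal1KO, 20.8 in Mfp2KO and 20.9 in WT. Each density covers only the stretch called in its own list, so they cover different sequence. Tags summed over the called stretches had medians of 19.9 in Bmal1KO, 22.95 in Mfp2KO and 35.8 in WT. Their median ratio to WT was 0.616 in Bmal1KO and 0.6995 in Mfp2KO, beside 0.872 and 1.35 over all regions called in every genotype. WT length and density chose the regions, so nothing is read from these ratios. The middle 50% of regions spanned 17.1 to 23.7 tags per kb in Bmal1KO, 16.4 to 33.6 in Mfp2KO and 18.3 to 23.1 in WT. The upper ends lay far apart, with the 95th percentile at 32.8 tags per kb in Bmal1KO, 86.0 in Mfp2KO and 24.6 in WT. The highest single values were 93.4 tags per kb in Bmal1KO and 226 in Mfp2KO. The lower end is bounded by the peak caller: the smallest number of tags it accepted in a 500 bp window equals 14.4 tags per kb in Bmal1KO, 12.7 in Mfp2KO and 12.7 in WT, and the lowest density over a whole stretch was 10.4 tags per kb in Bmal1KO, 10.8 in Mfp2KO and 11.3 in WT. A region of under 25 tags per kb in WT could therefore hardly be called at 2-fold lower density in a knockout.

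**Figure D1:**
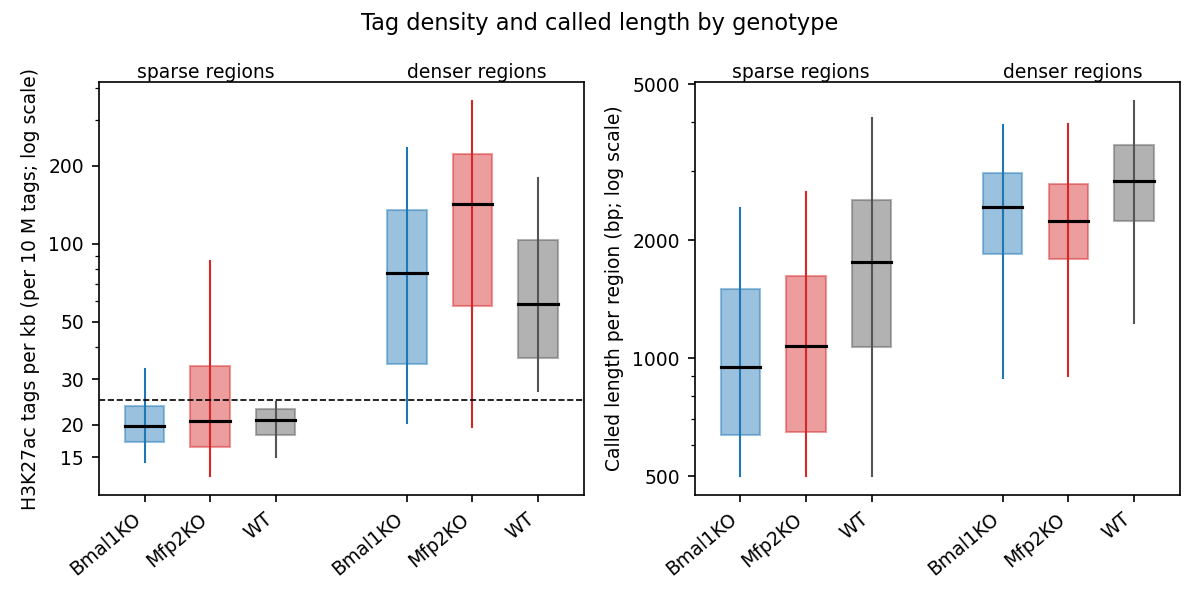
Tag density (left, log scale) and called length (right, log scale) in Bmal1KO, Mfp2KO and WT, for the 2124 sparse regions and for the denser regions under 5000 bp. Boxes span the quartiles with the median as a black line, whiskers run between the 5th and 95th percentiles, and the dashed line is the limit of 25 tags per kb. The Mfp2KO box of the sparse regions reaches 33.6 tags per kb, above the limit, whereas the Bmal1KO box ends at 23.7.

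The denser regions set beside them are the 10199 regions called in every genotype that were also under 5000 bp in WT but held 25 or more tags per kb there. Their median density was 77.2 tags per kb in Bmal1KO, 142 in Mfp2KO and 58.4 in WT. Sparse regions were also shorter, with a median called length of 947 bp against 2422 bp for denser regions in Bmal1KO, 1072 bp against 2235 bp in Mfp2KO, and 1761 bp against 2837 bp in WT. The 2124 regions together held few of the tags in peaks. They held 1.46% of the tags in 5.46% of the called length in Bmal1KO, 1.70% of the tags in 5.98% of the length in Mfp2KO, and 2.26% of the tags in 6.38% of the length in WT.

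The knockout lists called shorter stretches than WT at most of the same places. Called length over the sparse regions summed to 2.45 Mb in Bmal1KO, 2.65 Mb in Mfp2KO and 4.09 Mb in WT. The median ratio of called length was 0.619 for Bmal1KO over WT and 0.647 for Mfp2KO over WT, beside 0.821 and 0.781 over all regions called in every genotype. Bmal1KO was shorter at 1669 regions and longer at 412, and Mfp2KO was shorter at 1525 and longer at 579. At least 2-fold shorter stretches were called at 789 sparse regions in Bmal1KO, or 37.1%, beside a background of 14.2% over all regions called in every genotype. In Mfp2KO there were 777, or 36.6%, beside a background of 15.4%. With at least 50 counted tags in every list, these were 8 of 141 sparse regions in Bmal1KO, or 5.67%, beside 4.88% of all such regions. In Mfp2KO they were 22, or 15.6%, beside 7.19%. Because WT length is part of the rule, nothing is read from these shares. The Bmal1KO library also held fewer tags than WT (12.5 M against 15.8 M). Its window minimum was higher, at 14.4 tags per kb against 12.7. The part of depth and window minimum in called length was not tested. Stretches at least 2-fold longer were called at 77 regions in Bmal1KO (background 1.17%) and at 166 in Mfp2KO (background 2.44%).

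About as many knockout peaks lay wholly inside the WT peak as did not. In 1842 regions each list held exactly 1 peak. The Bmal1KO peak lay inside the WT peak at 973 of them, or 52.8%, and overlapped it in part at 680, and at 109 the WT peak lay inside the Bmal1KO peak. For Mfp2KO the same counts were 917, or 49.8%, 719 and 168. At 80 regions the Bmal1KO peak and at 38 the Mfp2KO peak did not touch the WT peak, and the region was joined through the other knockout's peak. The median distance between peak centres was 279 bp from Bmal1KO to WT and 326 bp from Mfp2KO to WT. At the median the knockout peak covered 50.7% of the WT peak in Bmal1KO and 50.01% in Mfp2KO. The smallest possible peak, 500 bp, made up 383 of these 1842 peaks in Bmal1KO, 346 in Mfp2KO and 135 in WT.

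The sparse regions are also described by classes of WT length, which is itself part of the rule. Among the 477 regions called over less than 1000 bp in WT, the median length was 758 bp in Bmal1KO, 962 bp in Mfp2KO and 713 bp in WT, so the knockout stretches were not shorter there. Among the 226 regions called over 3500 bp or more in WT, it was 1545 bp in Bmal1KO, 1423 bp in Mfp2KO and 4052 bp in WT. The share at or above 25 tags per kb also fell with WT length. In Bmal1KO it was 25.4% of the regions under 1000 bp and 14.2% of those of 3500 bp or more, and in Mfp2KO it was 49.1% and 26.5%. A short peak rests on few tags, and selecting on the WT length pushes the ratio of the shortest up and of the longest down. Nothing is therefore read from the lengths across these classes. The shares at the limit are not set beside those of all regions of the same WT length, and are a description too.

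Sorted by the same limit of 25 tags per kb in the knockouts, 1172 of the 2124 regions, or 55.2% (53.0 to 57.3), were sparse in all 3 genotypes, beside 14.6% of all regions called in every genotype that were under 25 tags per kb in both knockouts. At or above the limit were 420 regions in Bmal1KO, or 19.8% (18.1 to 21.5), and 794 in Mfp2KO, or 37.4% (35.3 to 39.5). Over all regions called in every genotype these shares were 76.8% in Bmal1KO and 80.7% in Mfp2KO, and 72.1% reached the limit in both. Low WT density chose the sparse regions, so nothing is read from the distance between these shares. Of the sparse regions, 158 reached it in Bmal1KO alone, 532 in Mfp2KO alone and 262 in both. The regions sparse in all genotypes had median densities of 18.3 tags per kb in Bmal1KO, 17.1 in Mfp2KO and 20.4 in WT. Those that reached the limit in both knockouts had 30.4 tags per kb in Bmal1KO, 56.6 in Mfp2KO and 22.1 in WT. In the 532 regions above the limit in Mfp2KO alone, the values were 19.7 in Bmal1KO, 36.2 in Mfp2KO and 21.0 in WT. Called length in these 532 was 815 bp in Bmal1KO, 1516 bp in Mfp2KO and 1512 bp in WT at the median, so the Mfp2KO stretch was about as long as the WT one there.

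**Figure D2:**
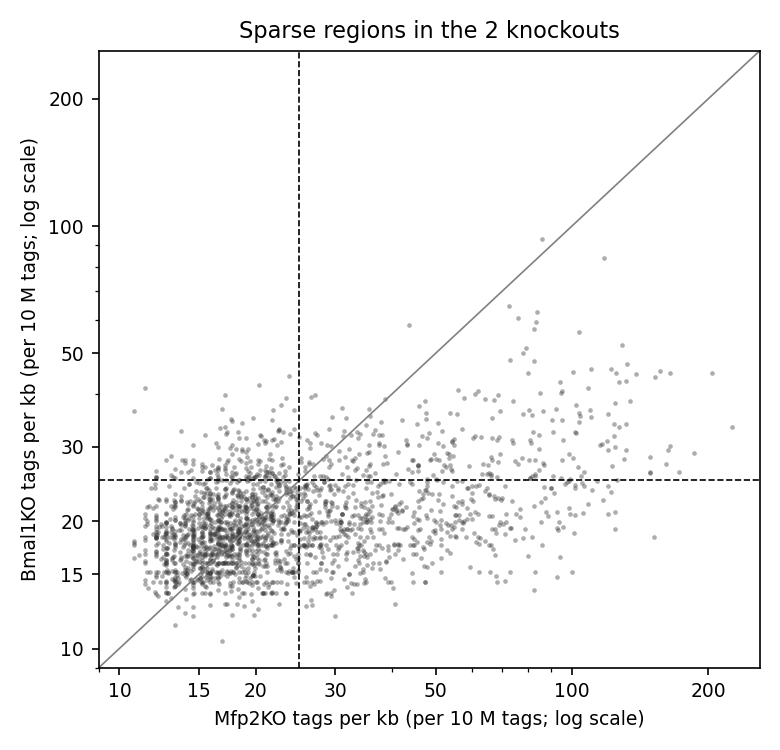
Tag density of each sparse region in Bmal1KO (vertical axis, log scale) and Mfp2KO (horizontal axis, log scale), in tags per kb per 10 M tags. Each point is 1 of the 2124 regions, the solid line marks equal density, and the dashed lines mark 25 tags per kb. Most points crowd below both limits, and a tail of 305 regions runs to the right at 50 or more tags per kb in Mfp2KO.

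The direct comparison of the knockouts did not use the WT values that chose the regions, apart from the presence of a peak in each list. Density in both knockouts was still bounded below by the peak caller, whose window minimum was 14.4 tags per kb in Bmal1KO and 12.7 in Mfp2KO. The part of this bound in their ratio was not tested. The median ratio of density, Bmal1KO over Mfp2KO, was 0.932 in the sparse regions, beside 0.694 over all regions called in every genotype and 0.662 in the denser regions. Bmal1KO was higher at 911 sparse regions and lower at 1213. It was at least 2-fold lower than Mfp2KO at 369 regions, or 17.4% (15.8 to 19.1), beside a background of 23.2% over all regions called in every genotype. At least 2-fold higher density in Bmal1KO was seen at 20 regions, or 0.942%, beside a background of 0.415%. Among regions with at least 50 counted tags in every list the order of these shares was the other way round: Bmal1KO was at least 2-fold lower at 52 of 141 sparse regions, or 36.9% (28.9 to 45.4), against 24.9% of all 10580 such regions. At least 2-fold higher density in Bmal1KO was then seen at 0 of the 141, against 0.0284% of the 10580. A sparse region passes this minimum more easily where a knockout is high, so neither set of shares alone describes the sparse regions. On tags scaled to 10 M per library, the higher share of Mfp2KO tags in peaks enters every density, and its part in the difference was not tested. Called lengths had a median Bmal1KO over Mfp2KO ratio of 0.982, beside 1.06 over all regions called in every genotype. Differences in called length at single regions were frequent, as Bmal1KO was at least 2-fold longer at 277, or 13.0%, beside a background of 5.64%, and at least 2-fold shorter at 389, or 18.3%, beside a background of 6.99%. With at least 50 counted tags in every list they were rarer. Bmal1KO was then 2-fold longer at 7 of 141 sparse regions, or 4.96%, against 1.98% of all such regions. It was 2-fold shorter at 3, or 2.13%, against 1.75%.

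Density against WT is given as a description, since low WT density chose the regions and the choice pushes both ratios up. The median ratio of Bmal1KO over WT was 0.983, with the middle 50% between 0.832 and 1.17, beside a median of 1.05 over all regions called in every genotype. For Mfp2KO over WT it was 1.04, with the middle 50% between 0.804 and 1.67, beside a median of 1.62 over all of them. Both ratios share the WT library. Density in Bmal1KO was at least 2-fold higher than in WT at 41 regions, or 1.93% (1.39 to 2.61), where the background was 6.73%. In Mfp2KO this was so at 418 regions, or 19.7% (18.01 to 21.4), where the background was 38.6%. Both knockouts passed 2-fold at 36 regions, where the background was 6.43%. At least 2-fold lower density was seen at no region in Bmal1KO (background 1.05%) and at 8 regions in Mfp2KO (background 1.59%). With at least 50 counted tags in every list, Mfp2KO was at least 2-fold higher at 63 of 141 sparse regions, or 44.7% (36.3 to 53.3). Of all 10580 such regions it was 46.6%. For Bmal1KO these were 7 regions, or 4.96% (2.02 to 9.96), against 8.76%. Sparse regions pass this minimum more easily where a knockout is high, so neither pair of shares alone describes them. When densities were scaled to the tags in peaks of each list, the median ratios turned to 1.02 for Bmal1KO over WT and 0.706 for Mfp2KO over WT, and 222 regions were past 2-fold in Mfp2KO, or 10.5%, beside 18.6% of all regions called in every genotype on that scale. Per kb of the whole merged region, in the limits and in the ratio, the shares past 2-fold lay above those of all regions called in every genotype: 8.23% against 5.19% in Bmal1KO, and 32.8% against 30.5% in Mfp2KO.

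A related comparison put the length and density limits on one knockout list and read the ratio of the other knockout to WT. WT length and density did not choose these regions, but a called WT peak was still required. WT density thus stayed bounded below by the peak caller, and the regions are a different set from the sparse regions above. Of the regions called in every genotype, 3253 met the limits in Bmal1KO. There the median ratio of density was 0.889 for Mfp2KO over WT, beside 1.62 over all regions called in every genotype, and 383 regions, or 11.8%, were at least 2-fold higher in Mfp2KO, beside 38.6% over all. The limits were met in Mfp2KO by 2737 regions, and there the median ratio was 0.834 for Bmal1KO over WT, beside 1.05 over all. Regions that were sparse in one knockout thus had a density in the other that lay below WT at the median.

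The regions with high density in Mfp2KO were 234 with 50 to 100 tags per kb and 71 with 100 or more, whereas in Bmal1KO 12 regions reached 50 and none reached 100. Over all regions called in every genotype, Mfp2KO had 13.6% at 50 to 100 tags per kb and 51.7% at 100 or more, and Bmal1KO had 19.8% and 31.4%. Bmal1KO density was higher in the regions that were dense in Mfp2KO. The classes below are cut on Mfp2KO density, so its own rise across them is fixed and is not compared. From regions under 15 tags per kb in Mfp2KO to those at 100 or more, the median densities in Bmal1KO were 18.1, 18.7, 20.3, 20.4, 24.0 and 30.2 tags per kb over the 6 classes of Mfp2KO density. In WT, where the limit of the rule holds it under 25, the medians were 19.99, 20.6, 21.0, 21.1, 21.6 and 22.4. The 4-fold minimum over input bears on which stretches were called, and so on these densities, and its part in the trend was not tested.

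Input tags followed the same order. Between the lowest and the highest class of Mfp2KO density, median input per kb differed in all 3 genotypes: it was 2.39 in the lowest and 5.15 in the highest in the Bmal1KO input, 1.56 and 7.50 in the Mfp2KO input, and 2.95 and 4.04 in the WT input, on the same scale of 10 M ChIP tags. A peak needed at least 4-fold enrichment over input, so low ChIP density forces low input in the same library, and Bmal1KO density was itself higher in the higher classes. In Mfp2KO the authors' fold over input had a median of 8.93 under 15 tags per kb, 6.28 in the class of 25 to 50 and 16.3 at 100 or more. How far this minimum sets the input values of each library was not tested.

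**Figure D3:**
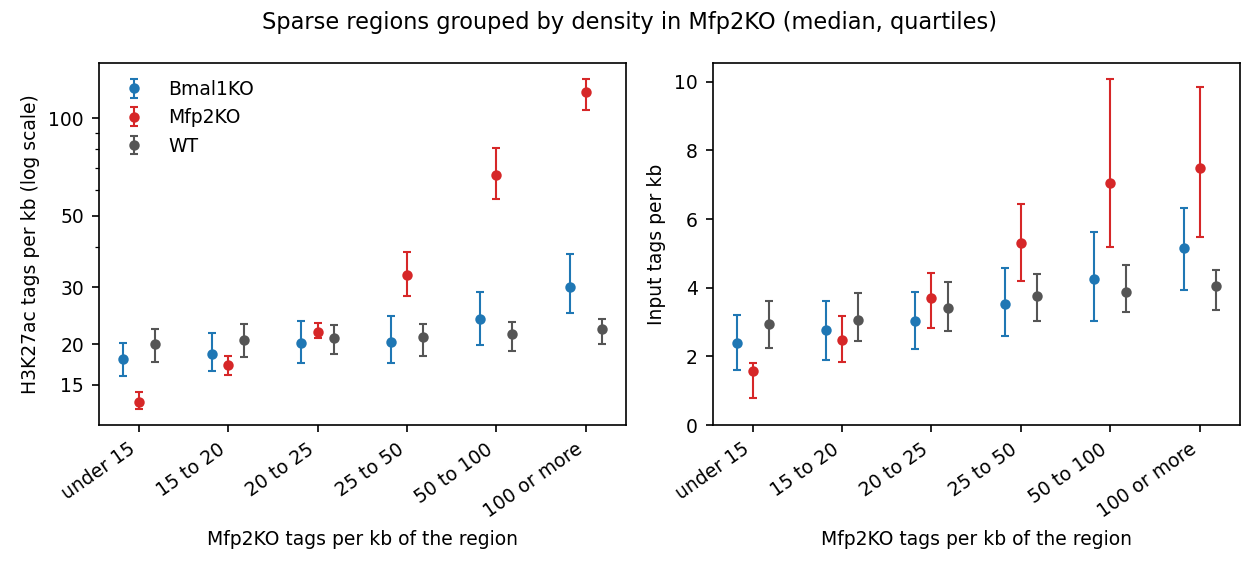
H3K27ac density (left, log scale) and input tags per kb (right) in Bmal1KO, Mfp2KO and WT for the sparse regions, in 6 classes of Mfp2KO density from under 15 to 100 or more tags per kb. Points are medians and bars are quartiles over regions. Bmal1KO medians go through 18.1 to 30.2 tags per kb from left to right, and input medians are higher on the right in all 3 genotypes.

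Regions are named where at least 50 tags were counted in every list, which 141 of the 2124 met. Most were picked because a ratio was among the highest or lowest, and the counting intervals do not allow for that choice. They also take each called length as fixed, although the tags set it. By the ratio of Mfp2KO over WT, chromosome 7 (128344947-128347957) stood first. It had 33.4 tags per kb in Bmal1KO, 226 in Mfp2KO and 23.6 in WT, over called lengths of 1852, 1692 and 3010 bp in the same order. The ratio of Mfp2KO over WT was 9.59 (counting interval 7.82 to 11.8), and that of Bmal1KO over WT was 1.42 (1.04 to 1.90). Input per kb was close in the 3 libraries, at 5.43 in Bmal1KO, 5.76 in Mfp2KO and 4.70 in WT. The Mfp2KO value stood far above those of Bmal1KO and WT, which lay close to each other by comparison.

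On chromosome 11 (72105134-72107460) density was 44.9 tags per kb in Bmal1KO, 204 in Mfp2KO and 22.7 in WT. The Mfp2KO over WT ratio was 8.99 (7.10 to 11.4), and the Bmal1KO over WT ratio was 1.97 (1.43 to 2.67). A region on chromosome 2 (127672691-127674866) had 29.0 tags per kb in Bmal1KO, 186 in Mfp2KO and 24.8 in WT. There the interval of the Bmal1KO over WT ratio, 0.828 to 1.64, held 1, whereas the Mfp2KO over WT ratio was 7.50 (5.96 to 9.56). The authors' fold over input at this region was 18.2 in Bmal1KO, 37.0 in Mfp2KO and 11.3 in WT, and at the chromosome 7 region it was 6.14, 39.2 and 5.02 in the same order. A second region on chromosome 2 (142904300-142906186) had 43.9 tags per kb in Bmal1KO, 152 in Mfp2KO and 21.5 in WT, the order Mfp2KO, Bmal1KO, WT again.

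Regions of high density in both knockouts were ranked by the smaller of the 2 density ratios to WT. The first, on chromosome 4 (128502726-128504762), had 57.0 tags per kb in Bmal1KO, 82.4 in Mfp2KO and 24.0 in WT, with ratios to WT of 2.38 (1.66 to 3.51) in Bmal1KO and 3.43 (2.58 to 4.70) in Mfp2KO. Its input per kb was also higher, at 6.55 in Bmal1KO, 9.85 in Mfp2KO and 4.88 in WT. On chromosome 15 (51740147-51742245) the values were 52.3 tags per kb in Bmal1KO, 129 in Mfp2KO and 23.9 in WT, over similar called lengths of 1966, 1831 and 2011 bp. On chromosome 13 (12409673-12411755) they were 47.1, 132 and 21.6 tags per kb in the same order, with input at 6.55, 13.5 and 4.69 per kb. The fourth, on chromosome 14 (75367328-75371542), had 45.9 tags per kb in Bmal1KO, 122 in Mfp2KO and 22.1 in WT. Here the called length differed most, with 1417 bp in Bmal1KO, 2113 bp in Mfp2KO and 4098 bp in WT, and tags summed to 65.0 in Bmal1KO, 258 in Mfp2KO and 90.5 in WT. Bmal1KO thus had fewer tags than WT there at a higher density. These 4 were also the 4 highest by Bmal1KO over WT.

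**Figure D4:**
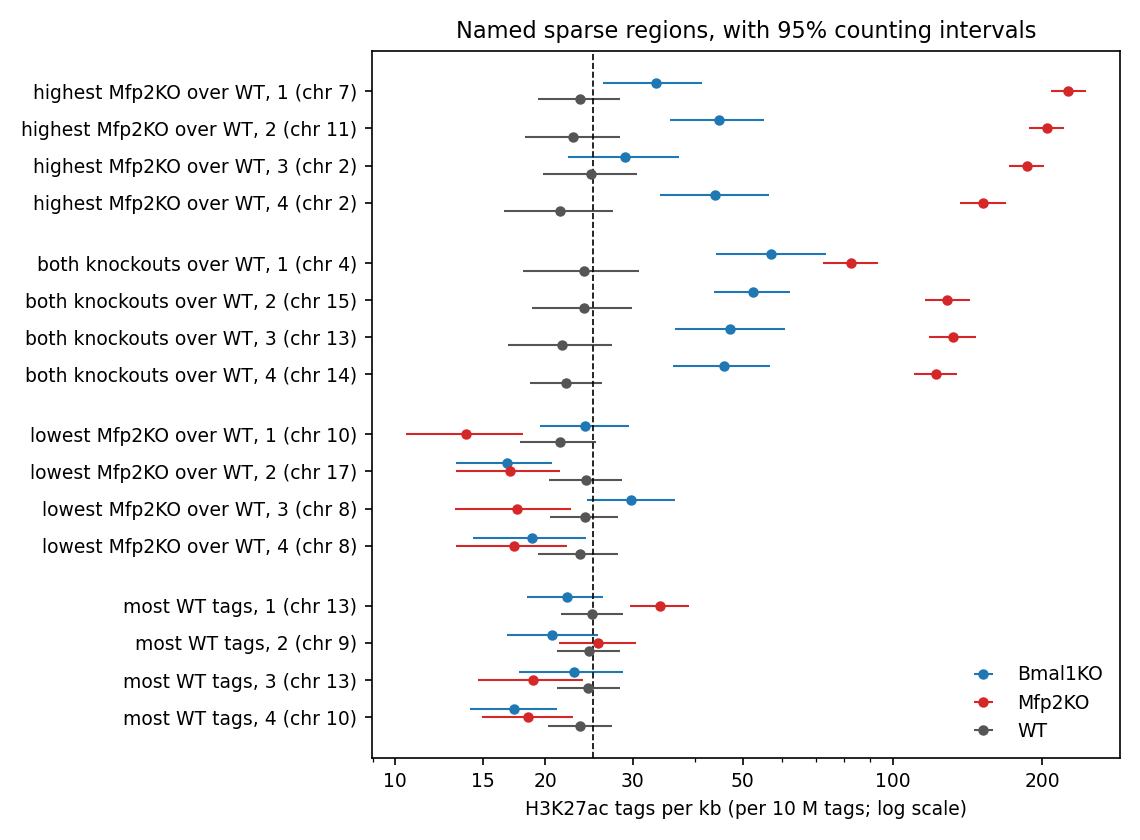
H3K27ac tags per kb (log scale) in Bmal1KO, Mfp2KO and WT for 16 named sparse regions, grouped by the rule that named them. Bars are 95% Poisson intervals of the counted tags and the dashed line is the limit of 25 tags per kb. In the upper 2 groups Mfp2KO lies between 82.4 and 226 tags per kb, and in the lower 2 groups the 3 genotypes lie between 13.9 and 34.1.

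Among the 141 regions, density differences in the other direction were small, as the peak caller's minimum allows. Summed tags, which also follow called length, were at least 2-fold below WT at 817 of the 2124 sparse regions in Bmal1KO (background 19.5%). In Mfp2KO this was so at 837 (background 18.3%). Summed tags were at least 2-fold above WT at 137 in Bmal1KO (background 5.19%) and 482 in Mfp2KO (background 30.5%). WT length and density chose the regions, so nothing is read from these shares. The lowest Mfp2KO over WT density ratio was 0.462 over all sparse regions. Among the 141 it was 0.649 (0.467 to 0.897), on chromosome 10 (58204362-58209121). That region had 24.0 tags per kb in Bmal1KO, 13.9 in Mfp2KO and 21.4 in WT, and with a Bmal1KO over Mfp2KO ratio of 1.73 (1.24 to 2.46) it was also the highest by that ratio. The lowest Bmal1KO over WT density ratio was 0.537 over all sparse regions. Among the 141 it was 0.694 (0.518 to 0.910), on chromosome 17 (79652844-79657657). Density at this region was 16.8 tags per kb in Bmal1KO, 17.0 in Mfp2KO and 24.1 in WT. Both knockouts were low there. On chromosome 4 (138589293-138594165) Bmal1KO was the high genotype, with 39.4 tags per kb in Bmal1KO, 26.5 in Mfp2KO and 24.98 in WT, and tags of 192, 32.3 and 110. The stretch called there was 4872 bp in Bmal1KO, 1220 bp in Mfp2KO and 4400 bp in WT. Its Bmal1KO over WT ratio was 1.58 (1.29 to 1.93).

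The region with the most WT tags, on chromosome 13 (63423836-63428901), had 104 tags in Bmal1KO, 134 in Mfp2KO and 123 in WT, or 22.1, 34.1 and 24.9 tags per kb. Next, on chromosome 9 (40981206-40986062), came 73.0 tags in Bmal1KO, 79.8 in Mfp2KO and 119 in WT, with a called length of 3528, 3120 and 4856 bp. Here the genotypes differed in how much sequence was called rather than in density, which was 20.7 tags per kb in Bmal1KO, 25.6 in Mfp2KO and 24.5 in WT. The longest stretch in Bmal1KO was 6540 bp on chromosome 3 (135219146-135226017), where Mfp2KO had 5089 bp and WT had 3927 bp in 2 peaks. The longest in Mfp2KO was 6145 bp, also on chromosome 3 (9054724-9060869), against 2497 bp in Bmal1KO and 3406 bp in WT. Density there was 31.3 tags per kb in Bmal1KO, 55.0 in Mfp2KO and 22.3 in WT.

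Values near the limits show how close the neighbouring regions were. The 3 sparse regions nearest to the density limit each had 24.98 WT tags per kb, and the 3 regions just outside had exactly 25. By length, the nearest sparse regions were called over 4951, 4949 and 4943 bp in WT, and the nearest regions outside over 5000, 5015 and 5017 bp. A further 119 regions were under 25 tags per kb but 5000 bp or longer in WT.

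Sparse regions lay on all 19 chromosomes. Their share of the regions called in every genotype was between 12.8% (10.4 to 15.6) on chromosome 3 and 20.4% (17.2 to 24.0) on chromosome 13, against 14.7% in all. Chromosome 13 also had the lowest input per kb relative to all regions called in every genotype, at 0.807 times their median in Bmal1KO, 0.825 in Mfp2KO and 0.818 in WT. The part of this lower input in the share was not tested. Regions at least 2-fold denser in Mfp2KO than in WT made up 33.1% (25.3 to 41.7) of the 136 sparse regions on chromosome 7, 29.7% (21.0 to 39.6) of the 101 on chromosome 17 and 8.05% (3.30 to 15.9) of the 87 on chromosome 3. Chromosomes 7 and 17 were also high over all regions called in every genotype, at 44.4% and 43.1%, and chromosome 3 was at 35.2%. Chromosomes were compared after their values were seen, and the intervals do not allow for that choice.

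**Figure D5:**
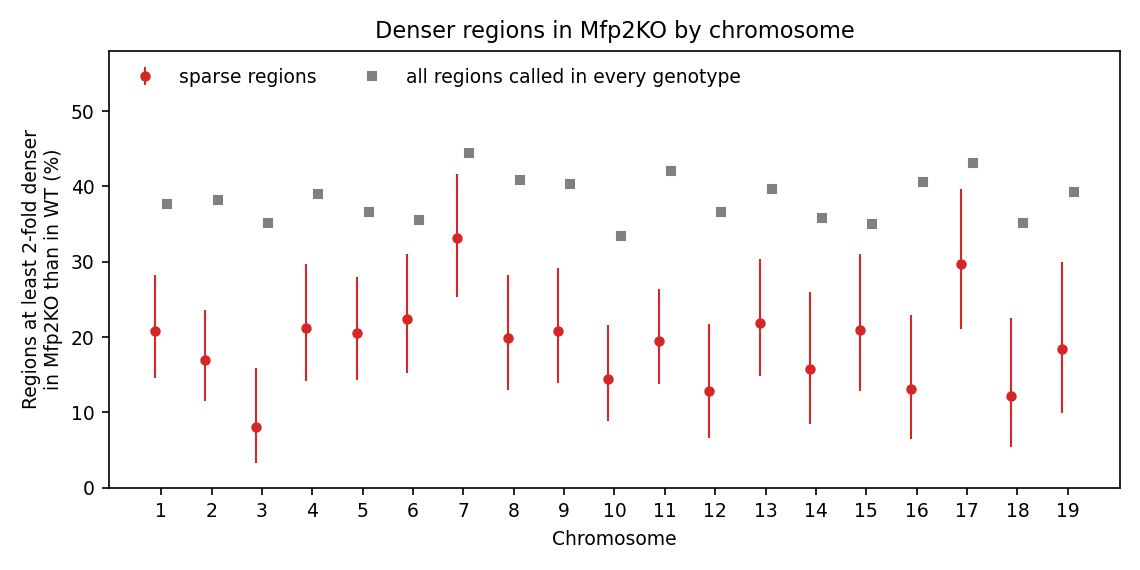
Percentage of regions at least 2-fold denser in Mfp2KO than in WT on each chromosome, for the sparse regions (points with exact 95% binomial intervals) and for all regions called in every genotype (squares). The sparse regions lie below the squares on every chromosome, as the squares run from 33.5% to 44.4% and the points from 8.05% to 33.1%.

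Along the chromosomes, sparse regions lay somewhat closer to other acetylated sequence than denser regions did. The median distance to the nearest region of any list was 3641 bp for sparse and 5645 bp for denser regions. Another region called in every genotype lay within 10 kb of 43.2% (41.1 to 45.4) of the sparse regions and of 35.2% (34.3 to 36.1) of the denser ones. Another sparse region lay within 10 kb of 222 sparse regions, or 10.5% (9.18 to 11.8), and of 6.36% (5.90 to 6.85) of the denser ones. Neighbouring regions share a library and are not independent, so these intervals are too narrow. In windows of 5 Mb, 431 of the 487 windows with a region called in every genotype held a sparse region, with a median of 4. The window with most was chromosome 8 from 125 to 130 Mb, where 22 of 49 regions were sparse, or 44.9% (30.7 to 59.8), against 14.7% in all. It was picked as the highest of the 431, and the interval does not allow for that choice. Median density in these 22 was 18.9 tags per kb in Bmal1KO, 20.6 in Mfp2KO and 21.3 in WT. They were thus sparse in both knockouts at the median, and in WT by the rule. Of the 22, 2 were at least 2-fold denser in Mfp2KO than in WT.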

How the data were processed

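Peak lists from 3 H3K27ac ChIP libraries, 1 per genotype, each called against the input of its genotype, were used. Groups came from the sample titles. Per the submitters' processing notes, the build was mm39 and the tools were HOMER 5.1, MACS3 3.0.3, Picard 3.4.0, SAMtools 1.23, BWA 0.7.19-r1273 and fastp 1.0.1, whose roles are not given in the sources used here. Per the file headers, the authors ran HOMER findPeaks in histone style: windows of 500 bp with a p-value of at most 0.001 were stitched, and a peak needed 4-fold enrichment and a p-value of 0.0001 over input. The deposited normalized tag count is a signal scaled to 10 M tags, per the file headers. Input tags, also a deposited signal, were brought to the ChIP depth here. The authors' fold over input is a deposited ratio, and the findPeaks score is a deposited score that was used in no result. The p-value was used only to describe the threshold.

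Tags and called length were summed per merged region and list with Python 3.11.15 and pandas 2.3.3, which was tested on simulated peaks, and intervals came from scipy 1.17.1. Densities equal to the limit were kept out. Named regions followed a written rule: 4 at each end of each density ratio, 4 by WT tags, and those next to the limits. The regions and these choices were made with earlier results of these data known. Alternatives changed 1 choice at a time.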

Additional observations from a re-analysis of the deposited data

How the results depend on the processing

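The median ratio of called length to WT stayed below 1 in both knockouts under each of the 11 alternatives run on it. It was also below 1 over all regions called in every genotype, at 0.821 for Bmal1KO and 0.781 for Mfp2KO. The length of WT, or of the knockout that took the limits, was part of each rule, so nothing is read from this. The number of regions and the density ratios depended on the choices. Beside 2124 regions, there were 558 when peaks needed 6-fold enrichment over input, 846 and 3369 with limits of 20 and 30 tags per kb, 3244 with input subtracted, and 3253 with the limits put on Bmal1KO. The median density ratio of Bmal1KO over WT, 0.983, was 0.931 with 6-fold enrichment, 1.08 and 0.948 with limits of 20 and 30, 1.005 with a length limit of 3000 bp, 0.693 per kb of merged region, 1.02 as a share of tags in peaks, 0.971 with input subtracted, and 0.800 and 0.834 with the limits put on Bmal1KO and Mfp2KO. That of Mfp2KO over WT, 1.04, was 0.853 with 6-fold enrichment, 1.13 with a limit of 20, 1.07 with 3000 bp, 0.706 as a share of tags in peaks, 1.07 with input subtracted, and 0.889 and 0.726 with the limits put on Bmal1KO and Mfp2KO. Length ratios, 0.619 for Bmal1KO and 0.647 for Mfp2KO over WT, were 0.543 and 0.468 with 6-fold enrichment, 0.659 and 0.694 with a limit of 20, 0.684 and 0.729 with 3000 bp, 0.734 and 0.842 per kb of merged region, 0.649 and 0.688 with input subtracted, 0.575 and 0.602 with the limits on Bmal1KO, and 0.592 and 0.490 with the limits on Mfp2KO. Where only regions with direct overlap of WT and knockout peaks were kept, which was added later, the Mfp2KO over WT length ratio was 0.622. Counts past 2-fold were recomputed after the data were seen. Beside each share stands that of all regions called in every genotype. For Bmal1KO over WT, 41 (1.93% beside 6.73%), they were 7 with 6-fold enrichment (1.25% beside 9.36%), 26 with a limit of 20 (3.07% beside 6.73%), 262 per kb of merged region (8.23% beside 5.19%, the order turned round), 79 with input subtracted (2.44% beside 8.38%), and 1 and 5 (0.0307% and 0.183% beside 6.73%) with the limits on Bmal1KO and Mfp2KO. For Mfp2KO over WT, 418 (19.7% beside 38.6%), they were 64 with 6-fold enrichment (11.5% beside 42.8%), 172 and 721 with limits of 20 and 30 (20.3% and 21.4% beside 38.6%), 1043 per kb of merged region (32.8% beside 30.5%, again turned round), 222 as a share of tags in peaks (10.5% beside 18.6%), 792 with input subtracted (24.4% beside 39.8%), and 0 with the limits on Mfp2KO, where a 2-fold higher value would need a WT density below that of the smallest accepted window. The cause of the other changes was not tested. Depth limits single regions: the median region rests on 24.9 counted tags in Bmal1KO, 36.2 in Mfp2KO and 56.5 in WT. No paired analysis was possible because each genotype has 1 ChIP library.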
